A study of Danio rerio with 4 samples.

Results

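The 10 skeletal muscle myosin heavy chain genes of the zebrafish were followed in ribosome footprint libraries from brain tissue of nop2 mutants and of their siblings. They were taken by gene symbol from a list of 7 fast chain genes (myhz1.1, myhz1.2, myhz1.3, myhz2, myha, myhb and myhc4) and 3 slow chain genes (smyhc1, smyhc2 and smyhc3), and all 10 were found among the 25522 genes of the deposited table. Ribo-seq sequences the RNA pieces that ribosomes shield from nuclease, so that each read marks a ribosome on a messenger RNA. Nop2 methylates ribosomal RNA in the nucleolus and is needed to build the large ribosomal subunit. Both groups were labelled as whole brain, and by the labels they differed in genotype only, nop2 sibling or nop2 mutant. The titles give an age of 48 days after fertilization and the design text an age of 48 hours. The mutant allele, the number of pooled animals and the genotypes among the siblings are not stated in the sources used. Each genotype had 1 library, with 20696345 footprint reads in sibling and 18884879 in mutant tissue, so the differences between genotypes have no replicate check and were not tested.

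Myosin heavy chain is the motor protein of the thick filament. A pair of heavy chains joins with light chains, and the heads split ATP and pull on actin. Skeletal muscle fibres use different heavy chain genes: fast-twitch fibres carry fast chains, and slow-twitch fibres, which in the zebrafish embryo arise from adaxial cells beside the notochord, carry slow chains, with smyhc1 as their early gene. Neurons and glia use non-muscle heavy chains in place of these.

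The material was first checked against its labels. Footprints on nop2 numbered 657 in sibling and 41 in mutant tissue, a log2 ratio of mutant over sibling CPM, a count scaled to the size of its library, of -3.85 (95% counting interval -4.36 to -3.41). All 13 markers of neurons and glia were present in both libraries, from 110 to 1311 CPM in sibling and from 59.6 to 1081 CPM in mutant tissue. All 7 heart markers (myh6, myh7, myl7, cmlc1, tnnt2a, nppa and nppb) were found too, with a summed level of 264 CPM in sibling and 389 CPM in mutant tissue. The 10 myosin heavy chain genes together took 3.45% of all sibling reads and 1.14% of all mutant reads, although the tissue was labelled as brain.

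Summed over the 10 genes, heavy chain footprints were 3.04-fold lower in the mutant library, with 714982 reads in sibling and 214737 in mutant tissue (log2 ratio -1.60, 95% counting interval -1.61 to -1.60). Most of these reads lay on myhz1.1 and myhz1.2. The other 8 genes, smyhc1 among them, were 1.79-fold lower when summed (-0.84, -0.86 to -0.82). Of the 10 genes 9 were lower, 7 of them by 2-fold or more, whereas smyhc1 was higher, also by more than 2-fold. The 7 genes were the 7 fast chains. Of the 18127 genes whose mean reached 1 CPM, 55.1% were lower, 5.7% were lower by 2-fold or more and 4.72% higher by 2-fold or more, and the median log2 ratio was -0.06 against -1.61 for the 10 genes, all of which reached that minimum. The gain of smyhc1 and the loss of the others were both larger than counting error, since the 10 counting intervals all excluded 0. Of all 18127 genes, 31.9% had an interval below 0 and 25.2% an interval above 0. Intervals cover counting error only and treat reads as independent, although copies of a molecule cannot be recognised without molecular identifiers. In bulk tissue fewer muscle cells and fewer footprints per muscle cell cannot be told apart, and the same holds for transcript amount and ribosome load, because no total RNA was analysed here.

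**Figure D1:**
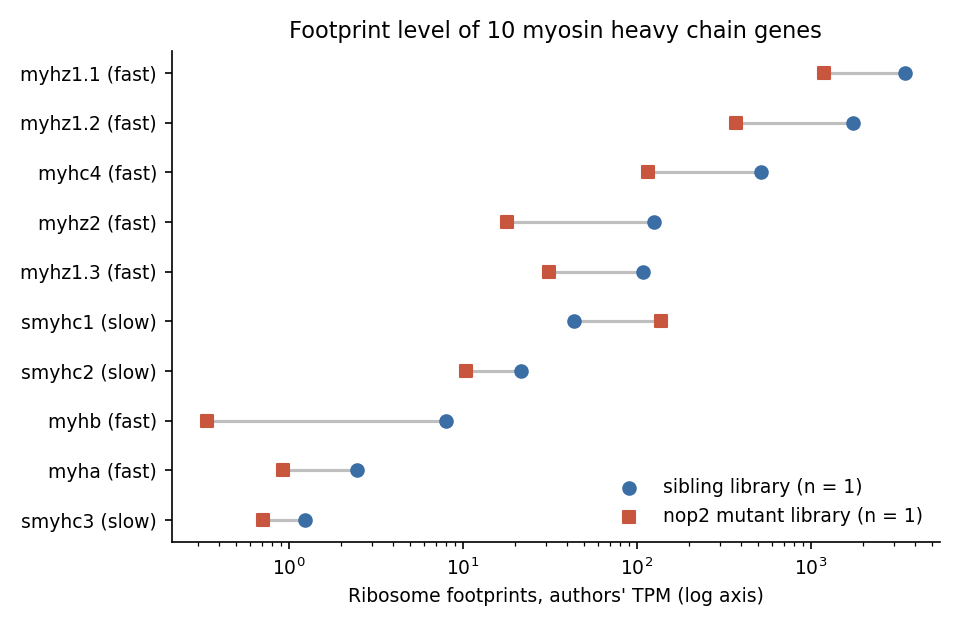
Footprint level of each gene in the authors' TPM (reads per length and library, log axis), with circles for the sibling and squares for the mutant library, 1 library each. The square lies left of the circle for 9 genes and right of it for smyhc1, which stood at 43.6 TPM in sibling and 139 TPM in mutant tissue.

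Levels are compared between genes in TPM, the authors' values per gene length and library, and between libraries in CPM. The most abundant heavy chain gene in both libraries was myhz1.1 (ENSDARG00000067990), one of 3 neighbouring fast chain genes. It stood at 3479 TPM in sibling and 1194 TPM in mutant tissue. By read count it was the highest of all 25522 genes in the sibling library, with 21336 CPM, and ninth in the mutant library, with 7625 CPM. Its log2 ratio was -1.48 (-1.49 to -1.48), or 2.80-fold lower. Next came myhz1.2 (ENSDARG00000067995), with 1752 TPM in sibling and 371 TPM in mutant tissue. Its CPM values of 10744 and 2371 gave a log2 ratio of -2.18 (-2.19 to -2.17), which lay below that of myhz1.1 with no overlap of the counting intervals. The third of these genes, myhz1.3 (ENSDARG00000067997), was much lower in level, with 109 TPM in sibling and 31.4 TPM in mutant tissue. Its log2 ratio was -1.74 (-1.79 to -1.68), between those of the other two. Reads on all 10 heavy chain genes were estimated counts that were not whole numbers, as for 25.7% of all genes, so the level of each close copy depends on how the estimate divided shared reads. The sum of myhz1.1, myhz1.2 and myhz1.3, which a split among these 3 cannot change, was 677746 reads in sibling and 192546 in mutant tissue, a log2 ratio of -1.68 (-1.69 to -1.68).

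The other 4 fast chain genes lay below myhz1.2 in level, and 3 of them had the lowest ratios of the family by CPM. The fast chain gene myhz2 (ENSDARG00000012944) stood at 125 TPM in sibling and 18.0 TPM in mutant tissue. In CPM this was 768 and 115, a log2 ratio of -2.74 (-2.81 to -2.68), or 6.68-fold lower. Footprints on myhc4 (ENSDARG00000035438) stood at 559 CPM in sibling and 94.6 CPM in mutant tissue, a log2 ratio of -2.56 (-2.64 to -2.49). The TPM of myhc4 was high for its read count, 521 in sibling and 116 in mutant tissue. The effective length implied by its count and TPM was 0.175 of that of myhz1.1 in sibling and 0.127 in mutant tissue, whereas the other 8 genes lay between 0.998 and 1.00. With TPM the log2 ratio of myhc4 was therefore -2.16, above the -2.24 of myhz1.2, and its place in the order of levels depends on that length. Of 12247 genes with at least 100 reads in each library, 1.53% differed in implied length by more than 1.2-fold between the libraries, among them myhc4 as the one heavy chain gene of the 10.

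The lowest ratio of the family belonged to myhb (ENSDARG00000001993), with 1014 reads (49.0 CPM) in sibling and 41 reads (2.17 CPM) in mutant tissue. Its log2 ratio was -4.48 (-4.98 to -4.05), or 22.3-fold lower, and 0.226% of the 18127 genes had a lower one. In TPM it went from 7.99 to 0.338, so that it ranked eighth of the 10 genes in the sibling library and last in the mutant library. The remaining fast chain gene, myha (ENSDARG00000095930), was scarce in both libraries, with 314 reads (15.2 CPM) in sibling and 112 reads (5.93 CPM) in mutant tissue. Its log2 ratio of -1.35 (-1.68 to -1.04) was the mildest among the fast chains, and its counting interval overlapped that of myhz1.1. Summed, myhz2, myhc4, myha and myhb had a log2 ratio of -2.68 (-2.72 to -2.63), which lay below that of the 3 myhz1 genes beyond counting error. Counting error does not cover how shared reads were divided between these genes and the myhz1 genes, and other divisions were not tried.

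**Figure D2:**
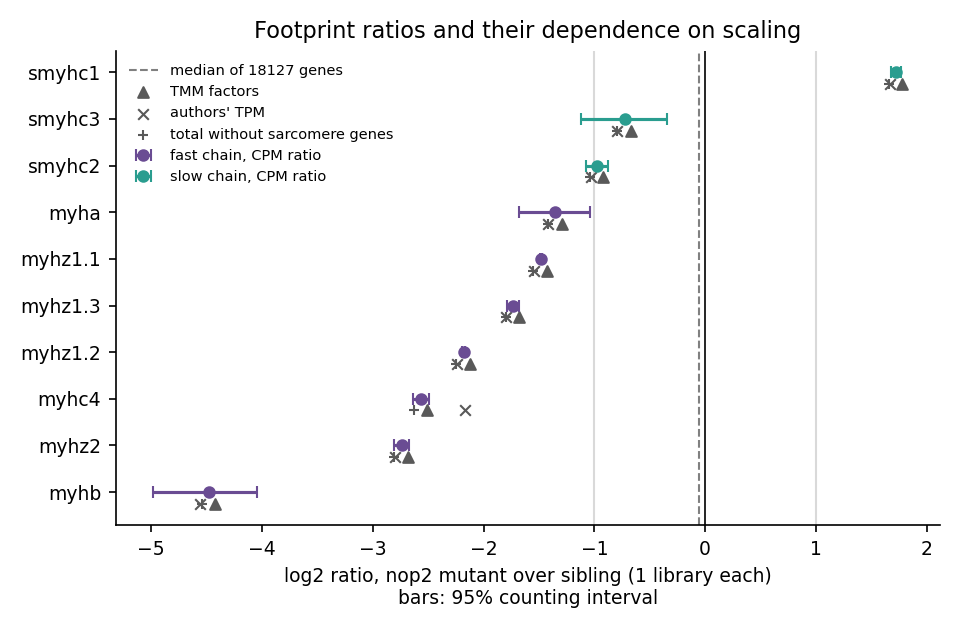
Log2 ratio of mutant over sibling CPM for each gene, with 95% counting intervals, fast chains in purple and slow chains in green, and the same ratio under other scalings in grey. The 7 fast chains lie between -4.48 and -1.35, smyhc2 and smyhc3 between these and 0, and smyhc1 at 1.73, and the authors' TPM moves only myhc4 visibly, to -2.16.

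The slow chain genes went different ways. Footprints on smyhc1 (ENSDARG00000099959), the early slow chain gene of the embryo, numbered 5542 (268 CPM) in sibling and 16724 (886 CPM) in mutant tissue. This was 3.31-fold higher, a log2 ratio of 1.73 (1.68 to 1.77), and smyhc1 moved from place 594 to place 131 among all genes by read count. Its neighbour smyhc2 (ENSDARG00000103969) stood at 2735 reads (132 CPM) in sibling and 1270 reads (67.2 CPM) in mutant tissue, a log2 ratio of -0.97 (-1.07 to -0.88). The third slow chain gene, smyhc3 (ENSDARG00000114031), had 158 reads (7.63 CPM) in sibling and 87 reads (4.61 CPM) in mutant tissue, a log2 ratio of -0.72 (-1.12 to -0.34). The intervals of smyhc2 and smyhc3 overlapped, and smyhc2 lay just inside the 2-fold limit, which it passed in TPM (-1.03). Summed over the 3 slow genes, 8435 reads became 18081, a log2 ratio of 1.23 (1.19 to 1.27), and this sum does not depend on how reads were split among them. The opposite directions of smyhc1 and of smyhc2 and smyhc3 do rest on the estimated split. Had all slow chain reads of the sibling library come from smyhc1, with its mutant count left as estimated, its log2 ratio would have been 1.12. Other divisions of the mutant reads, or of reads shared with cardiac-type genes, were not tried. Most heart markers were higher too, 6 of 7, from 0.71 for myl7 to 1.64 for nppb, while the ventricular chain gene, listed as myh7, stood at -1.09. None of the 7 was at 0 in either library, and their part in the slow chain result was not tested.

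Within the heavy chain reads, the balance of fast and slow chains shifted, a measure that needs no scaling between libraries. Slow chains made up 1.18% of heavy chain reads in the sibling library (exact Clopper-Pearson 95% interval 1.15 to 1.21%) and 8.42% in the mutant library (8.30 to 8.54%). There were 83.8 fast reads for each slow read in sibling and 10.9 in mutant tissue. Most of the slow share was smyhc1, which supplied 65.7% of slow reads in sibling and 92.5% in mutant tissue. Per length, myhz1.1 stood 79.7-fold above smyhc1 in sibling and 8.61-fold above it in mutant tissue, and smyhc1 stood 2.03-fold and 13.2-fold above smyhc2. Among the fast chains, myhz1.1 took a larger share of heavy chain reads in the mutant library, 67.1% against 61.8%, and myhz1.2 a smaller one, 20.9% against 31.1%. Together both genes held 92.9% of heavy chain reads in sibling and 87.9% in mutant tissue. Shares of myhz2 (2.22 and 1.01%), myhc4 (1.62 and 0.832%) and myhb (0.142 and 0.0191%) were smaller in the mutant library. Those of myha were 0.0439% (0.0392 to 0.0491%) and 0.0522% (0.0429 to 0.0628%), whose intervals overlapped.

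**Figure D3:**
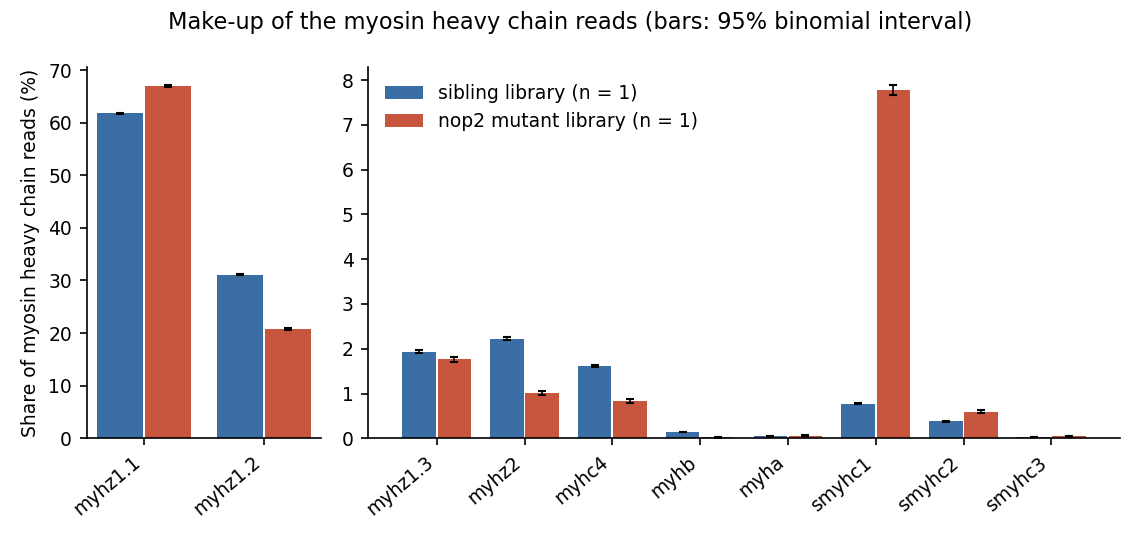
Share of each gene in the reads on the 10 heavy chain genes, in percent, for the sibling (blue) and mutant (red) library, with 95% binomial intervals as bars, and with a finer axis on the right. The bar of smyhc1 stands at 0.775% in sibling and 7.79% in mutant tissue, while myhz1.2 goes from 31.1 to 20.9%.

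By level, the order in the sibling library was myhz1.1, myhz1.2, myhc4, myhz2, myhz1.3, smyhc1, smyhc2, myhb, myha and smyhc3. In the mutant library it was myhz1.1, myhz1.2, smyhc1, myhc4, myhz1.3, myhz2, smyhc2, myha, smyhc3 and myhb, so that smyhc1 moved from the sixth to the third place. With 1 library per genotype the spread of these levels between animals was not measured.

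In the order of genes in the RefSeq annotation of the assembly GRCz12tu, used here for neighbours only because the submitters' processing notes name the build GRCz11, 6 of the 7 fast genes form an unbroken run: myhz2, myhc4, myha, myhz1.3, myhz1.2 and myhz1.1. The 3 slow genes form a run of their own, and myhb stands alone. Along the fast run the log2 ratios were -2.74, -2.56, -1.35, -1.74, -2.18 and -1.48, so the genes with the lowest ratios by CPM, myhz2 and myhc4, were adjacent. By TPM this did not hold, since myhz1.2 (-2.24) then lay below myhc4 (-2.16). The nearest gene on the myhz2 side, the kinase gene taok3b, had 2.08 CPM in sibling and 1.32 CPM in mutant tissue and a ratio of -0.64 (-1.42 to 0.09), which was not distinguishable from 0 at this depth. On the myhz1.1 side hspb15 lay under 1 CPM in both libraries, and the next gene, the endocytic adaptor gene dab2, with 13.5 CPM in the sibling library, had a ratio of -0.16 (-0.42 to 0.10).

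**Figure D4:**
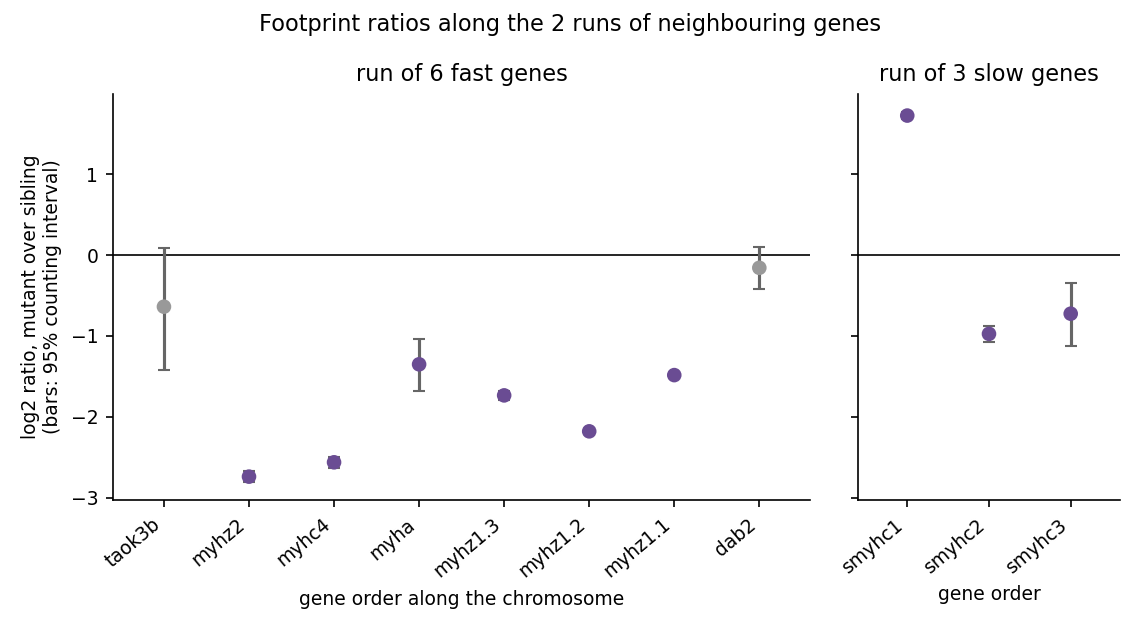
Log2 ratio of mutant over sibling CPM with 95% counting intervals, in gene order along the fast run with its nearest neighbours of at least 1 CPM in grey (left, hspb15 before dab2 left out) and along the slow run (right). The 6 fast genes lie between -2.74 and -1.35, dab2 at -0.16, and smyhc1 at 1.73 beside smyhc2 at -0.97.

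Genes whose products work with the heavy chains were described from lists, by counts and medians. Light chains sit on the neck of each myosin head. Of 10 measured sarcomeric light chain genes 5 were lower by 2-fold or more and 2 higher by as much, and the median log2 ratio was -0.90. Among all genes 5.7% were lower and 4.72% higher by 2-fold or more. The light chain list includes the heart markers myl7 (0.71) and cmlc1 (0.97). The abundant fast light chain genes mylz3 (2370 to 928 CPM, -1.35) and mylpfa (2303 to 674 CPM, -1.77) were lower. The myhz1 genes ranged from -2.18 to -1.48, which held mylpfa, while mylz3 lay above that range. The fast light chain gene mylpfb, chosen after its value was seen, was lower by less (676 to 450 CPM, -0.59). A gene of embryonic and atrial muscle in mammals, myl4, stood at -1.67. Both light chain genes past 2-fold in the other direction, chosen here after their values were seen, were myl10 (76.1 to 212 CPM, 1.48) and myl13 (117 to 258 CPM, 1.14). Among 14 measured genes of thick filament partners and the M line, which ties thick filaments together, 6 were lower by 2-fold or more, 1 was higher by as much, and the median was -0.41. Values were -1.60 for the abundant myosin binding protein H gene mybphb, -1.22 for the myomesin gene myom2a and 1.33 for mybpc3, which encodes the cardiac form of myosin binding protein C. Genes that fold or modify myosin had a median of 0.03, whose sign changed with scaling, and none of 10 was past 2-fold in either direction by CPM. There hsp90aa1.2, a chaperone gene near-identical to its neighbour hsp90aa1.1, stood at 0.47, and hsp90aa1.1 at -0.01 (-0.08 to 0.06). Counts of both were not whole, so each ratio depends on how shared reads were divided. The co-chaperone gene stip1 stood at 0.08 (-0.08 in TPM), the methyltransferase gene smyd1a at -0.88 (-1.02 in TPM) and apobec2a at -0.76. The myosin chaperone gene unc45b, chosen after its value was seen, had 53.7 CPM in sibling and 69.2 CPM in mutant tissue (0.36, 0.25 to 0.48). Which cells of the tissue the footprints on the folding genes came from was not tested.

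Other genes of fast and slow fibres were set beside the heavy chains. The median of 22 measured fast fibre genes was -1.17. Of these, 21 were lower, 14 of them by 2-fold or more, against 55.1% and 5.7% of all genes. Among them were the calcium pump gene atp2a1 (6964 to 2620 CPM, -1.41), the tropomyosin gene tpma (4654 to 1584 CPM, -1.55), the muscle creatine kinase gene ckmb (-1.87) and the troponin gene tnni2b.1 (50.1 to 10.3 CPM, -2.28). The fast fibre list shares mylpfa, mylpfb and myl1 with the light chain list and mybpc2b with the thick filament list. Fast heavy chain reads numbered 1.12 for each read of this fast fibre list in sibling and 0.887 in mutant tissue. Slow fibre genes were divided, with 4 of 13 lower by 2-fold or more, 2 higher by as much and a median of 0.30. The tropomyosin gene tpm3 was the most abundant (380 to 466 CPM, 0.30), and myl13, which is also on the light chain list, stood at 1.14. The other gene higher by 2-fold or more, named after its value was seen, was tnnt2e (7.92 to 17.2 CPM, 1.12). The transcription factor genes prox1a (-1.64) and prdm1a (-1.42), which are also expressed in eye and nervous system, were lower. Also lower by 2-fold or more, and named after their values were seen, were mb (108 to 47.8 CPM, -1.18) and mybpc1 (6.52 to 2.12 CPM, -1.61). The gene mybpc1 is on the thick filament list too. Chosen after its value was seen, the slow troponin C gene tnnc1b stood at 61.7 CPM in sibling and 120 CPM in mutant tissue (0.96). Slow heavy chain reads numbered 0.441 for each read of the slow fibre list in sibling and 0.885 in mutant tissue. Of the reads of that list, tpm3 held 7863 of 19126 in sibling and 8803 of 20428 in mutant tissue. Whether the list tracks the amount of slow fibre was not tested.

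Heavy chains of other muscle and of other cells did not share one direction. Of the cardiac-type chains, myh6, the atrial chain, stood at 45.2 CPM in sibling and 119 CPM in mutant tissue (1.40), and myh7l at 82.0 and 168 CPM (1.04). In the authors' TPM myh7l stood at 25.9 and 32.9, a log2 ratio of 0.35, so that it was no longer past 2-fold. By contrast myh7, the ventricular chain, stood at 101 and 47.6 CPM (-1.09). By CPM the 4 measured genes of this list had 2 past 2-fold in each direction, by TPM myh6 was the one past it upward, and the sign of their median of -0.03 changed with scaling. Among non-muscle and smooth muscle heavy chains, myh9a was higher (480 to 1119 CPM, 1.22), myh10, the form most used by neurons, differed little (266 to 292 CPM, 0.14), and the smooth muscle chain gene myh11a was lower (21.1 to 9.74 CPM, -1.11). The remaining gene of this list, myh14, is deposited under the symbol MYH10 and stood at 104 and 88.4 CPM (-0.24, -0.33 to -0.15). The median of the 4 measured genes was -0.05 and became 0.0050 under TMM scaling. It leaves out an abundant gene listed as MYH9 (ENSDARG00000001014), which the list did not match and which stood at 527 and 678 CPM (0.36). Of 5 non-muscle and smooth light chain genes myl9b stood out with 146 CPM in sibling and 444 CPM in mutant tissue (1.61), while myl12.1 (-0.01) and myl6 (-0.13) had counting intervals that included 0. The median of this list, -0.01, likewise became 0.041 under TMM scaling.

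**Figure D5:**
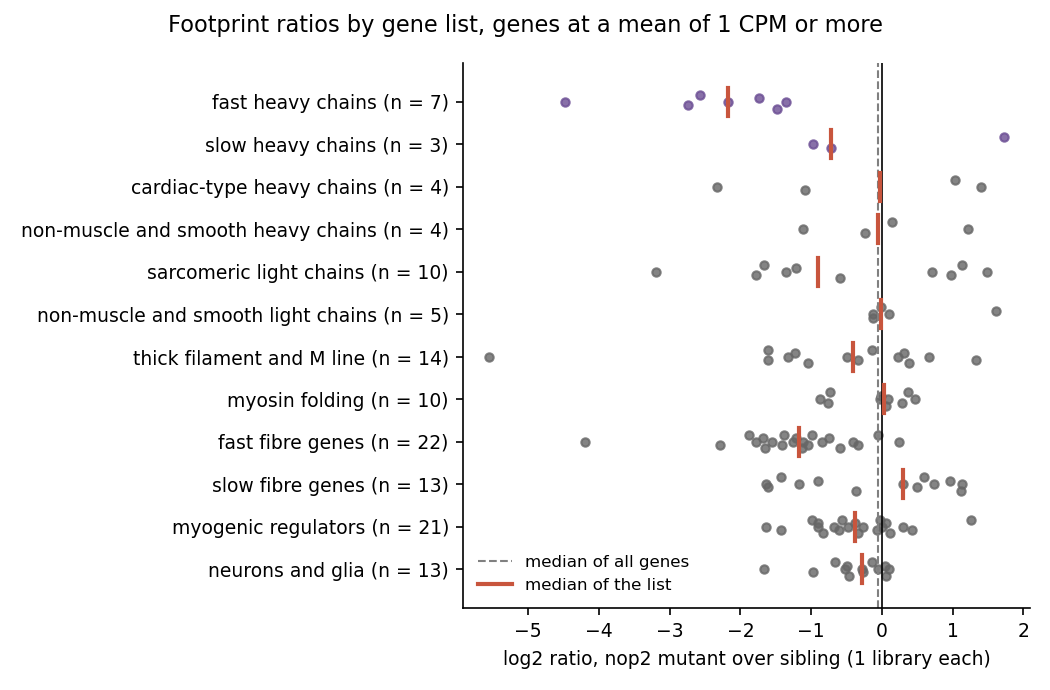
Log2 ratio of mutant over sibling CPM of every listed gene whose mean reached 1 CPM, 1 point per gene, with the median of each list in red and that of all genes as a dashed line, 1 library per genotype. The fast heavy chains (median -2.18) and fast fibre genes (-1.17) have their medians left of 0, and the slow fibre genes (median 0.30) fall on both sides.

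Of 21 measured regulators of muscle genes 16 were lower, with counting intervals that included 0 for 4 of these, and the median was -0.38, against -2.18 for the fast chains. In bulk brain tissue the footprints of these regulators cannot be assigned to muscle cells, so the medians do not compare genes within muscle. By 2-fold or more 2 were lower and 1 was higher, near the shares of 5.7% and 4.72% among all genes. The pair past 2-fold were prox1a and prdm1a. Among the others, the fast fibre regulator gene sox6 stood at 77.3 CPM in sibling and 41.3 CPM in mutant tissue (-0.90), and the homeobox gene pbx4, the most abundant, at 152 and 165 CPM (0.12). Of the myogenic factors, chosen after their values were seen, myod1 was close to 0 (-0.00, -0.18 to 0.17), myog stood at -0.83 and myf5, with 57 and 125 reads, at 1.26. Neuron and glia markers had a median of -0.28 over 13 genes, with tubb5 at -0.28, snap25b at -0.98 and the radial glia gene fabp7a at -1.67. Of the 13, 10 were lower, 1 of them by 2-fold or more, and 3 were higher, among them snap25a at 0.06 and sox2 at 0.10.

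Among 1601 genes outside the lists whose mean reached 100 CPM, the 5 whose ratio over the 2 libraries was nearest to that of the summed heavy chains were NEB (-1.58), which encodes the thin filament protein nebulin, ppp1r14c (-1.63), a phosphatase inhibitor gene, and the lens crystallin genes crygmxl2 (-1.58), crygm2d8 (-1.57) and crygm2d17 (-1.56). RNA bisulfite sequencing of the same tissue gave a deposited table of differential 5-methylcytosine loci. Of its 623 lines in the authors' deposited table, 0 named a skeletal muscle heavy chain gene. The share of all 25522 genes named there was not computed. With so few lines, a count of 0 among 10 genes is no result about these genes.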

How the data were processed

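Per the file headers, the deposited Ribo-seq table gave a count, a TPM, a log2 fold change and p-values per gene, 1 library per genotype. Counts were not all whole, so they were read as the authors' expected counts, not normalized, and rounded to whole numbers. The authors' TPM is scaled by length and library. The deposited log2 fold change and p-value (and FDR) were not used for any call. The submitters' processing notes name the build GRCz11 and, with no roles, STAR, HISAT2, Bowtie2, fastp, SAMtools, methylKit and Trimmomatic 0.38. No source used here gave the counting program. From the deposited m5C loci table, gene names alone were searched.

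Log2 ratios of mutant over sibling CPM were computed over the whole table from counts plus 0.5 (Python 3.11.15, scipy 1.17.1), and tested on simulated data. The simulated counts were independent between genes, so they say nothing about reads shared between close copies or about spread between animals. Genes were kept where their mean reached 1 CPM. The 95% intervals are exact Clopper-Pearson intervals conditional on both counts. With 1 library per genotype no test was made. A read was worth 0.0483 CPM (sibling) or 0.0530 CPM (mutant). Scaling alternatives used edgeR 4.0.16 (TMM) and DESeq2 1.42.0 size factors. The 10 genes and the lists were chosen with earlier results of these data known. Listed genes were matched by symbol, or by gene ID where the symbol differed. The named genes of each list are the 2 most abundant and the 2 with the largest absolute ratio at a mean of 10 CPM or more. Listed symbols with no match were not analysed here.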

Additional observations from a re-analysis of the deposited data

How the results depend on the processing

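No paired analysis was possible because each genotype had 1 library. All 10 heavy chain genes kept their direction under TMM factors, DESeq2 size factors, a total without sarcomere genes, the authors' TPM, a pseudocount of 5, unrounded counts and both other minimums, except that smyhc3 had no value at a minimum of 10 CPM. The summed log2 ratio was -1.55 with TMM or DESeq2 factors, -1.67 without sarcomere genes in the total and -1.69 with TPM. The median became -1.74 at a minimum of 10 CPM. Relative to the heavy chain reads alone, an alternative chosen after seeing the data, 2 genes were at least 2-fold lower in place of 7. The slow share was 1.095% and 7.96% in sibling and mutant by TPM, and 1.26% and 8.73% with 8 further heavy chain genes, also chosen after seeing the data. Of these, 4 were slow or cardiac-type and were counted as slow, while myh6, myh7 and myh7l were not added. Medians of small lists changed sign: cardiac-type chains were at 0.030 with TMM factors, 0.029 with DESeq2 factors and 1.04 at 10 CPM (and further below 0, at -0.40 with TPM and -1.09 with no minimum), non-muscle heavy chains at 0.0050 and 0.0047, non-muscle light chains at 0.041 with both, and folding genes at -0.040 without sarcomere genes, -0.075 with TPM and -0.010 with no minimum. The scalings moved the median of all genes by at most 0.07. The slow share without genes of non-whole counts could not be computed, since no heavy chain gene had whole counts. The cause of these shifts was not tested. The depth leaves smyhc3, myha and myhb with fewer than 120 mutant reads each.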

Other observations

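The table lists further genes that carry no zebrafish heavy chain symbol but whose deposited description names a skeletal or cardiac-type heavy chain, and these were chosen after their values were seen. A gene listed as Myh4 (ENSDARG00000102414, described as fast skeletal) had 491 reads in sibling and 44 in mutant tissue, a log2 ratio of -3.33 (95% counting interval -3.83 to -2.90). Another fast skeletal gene, listed as MYH1 (ENSDARG00000110596), had 134 and 2 reads. A gene described as myosin-6-like (ENSDARG00000111606) had 192 reads in sibling and 0 in mutant tissue. The upper end of its counting interval was a log2 ratio of -5.56. With the mutant count set to a floor of 3 reads it was 58.4-fold lower. The TPM of this gene was high for its read count, 15.1 in sibling tissue, against 7.37 for the 935 reads of myh6. Its implied length was therefore shorter than that of myh6. Both genes listed as Myh7 were higher in the mutant library, with 146 and 356 reads (ENSDARG00000098747, 1.42) and with 195 and 387 reads (ENSDARG00000103837, 1.12). A gene listed as MYH6 and described as myosin-7-like (ENSDARG00000114818) went the other way, with 40 reads in sibling and 0 in mutant tissue. The upper end of its counting interval was -3.24, and at the same floor it was 12.17-fold lower. All had counts that were not whole numbers.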
